A study of Homo sapiens with 6 samples.

Results

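The nucleolus is the nuclear compartment in which ribosomal RNA is transcribed by RNA polymerase I, cut, modified and packed with ribosomal proteins. Small nucleolar RNAs (snoRNAs) guide the modifications, and each works inside a protein complex. Box C/D particles methylate ribosomal RNA through the methyltransferase fibrillarin, and box H/ACA particles convert uridines to pseudouridines through dyskerin. Ribosome production is known to be raised in many tumors, including those of the colon, and its factors are therefore often read as a measure of growth. NOLC1 (also called Nopp140) and TCOF1 (treacle) are related phosphoproteins that link these particles and RNA polymerase I.

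The expression of 10 nucleolar genes was examined, of 32029 genes listed for each culture. They were NOLC1, TCOF1, the box C/D proteins NOP58, NOP56 and FBL, the box H/ACA proteins DKC1 and NOP10, the abundant nucleolar proteins NCL and NPM1, and POLR1A, the catalytic subunit of RNA polymerase I. NOLC1 was chosen by its measured rise of more than 3-fold in these same cultures, so its change is given as a description, with no p-value or interval. The other 9 were listed for their function, with earlier results of these data known. NOLC1 lay above the limit of 3-fold, at 3.39-fold, and the next of the 10 genes was TCOF1, below it at 1.52-fold. A fold change above 3 was found for 0.760% of the 14996 genes tested. All 10 genes passed the filter on low counts.

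The 6 sequenced cultures were of SW480, an established line from a human colorectal adenocarcinoma, which the labels give as wild type. The cells received either a negative control siRNA (labelled siNC, here siControl, 3 cultures) or siZEB1, an siRNA against the transcriptional repressor ZEB1 (3 cultures), and the design text gives 48 h of transfection. The siRNA sequences were not used here. Each group stands for 1 cell line, and the siZEB1 group for a transient and partial loss of ZEB1 RNA. With the single label siZEB1, effects of the siRNA on other RNAs cannot be told apart from effects of lower ZEB1. Between 19040636 and 22357633 reads were counted per culture, and counts were scaled to CPM (counts scaled to library size after TMM normalization). ZEB1 had 1247, 1276 and 908 reads in the control cultures and 136, 132 and 162 reads after siZEB1, which matches the labels in each culture, and its mean level went from 54.2 ± 6.24 CPM to 7.51 ± 0.843 CPM (SD, n = 3 each). Of the colon carcinoma markers, each was detected in each culture. KRT8 was at 3322 to 3653 CPM and KRT18 at 1269 to 1568 CPM, here scaled by total counts alone. KRT19 (1549, 1589 and 1410 reads, then 4422, 4451 and 3891) and VIL1 (75, 94 and 87 reads, then 384, 429 and 371) had more reads after siZEB1, while CDX2 had fewer (2023, 2312 and 2106 reads, then 760, 862 and 769). The blood markers CD3E and CD68, the liver marker ALB and the fibroblast marker COL1A2 had at most 5 reads per culture, the endothelial marker PECAM1 24 to 35 and the fibroblast marker COL1A1 143 to 227. The part of these markers in the results was not tested.

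NOLC1, which binds snoRNA particles and chaperones their traffic between the nucleolus and the Cajal body, was the most changed of the 10 genes. It was at 249, 256 and 241 CPM in the siControl cultures and at 848, 839 and 843 CPM in the siZEB1 cultures. The siZEB1 cultures were thus nearly equal, and the lowest of them lay far above the highest control. Its log2 fold change was 1.76, from 5286, 5741 and 4648 reads to 16017, 16133 and 16132 reads. The coefficient of variation between siZEB1 cultures was 0.561%, below the 0.788% that counting alone gives at this depth. Between siControl cultures it was 3.07%, above the 1.39% from counting. NOP58 in the siZEB1 cultures and DKC1 in the siControl cultures also varied by less than counting alone gives. By log2 fold change NOLC1 ranked 87 of 14996 genes, and among the 2387 genes with at least 100 CPM in the controls it ranked 1. By its gain in mean level, 595 CPM, it ranked 5 of the 14996. These ranks restate the rise by which NOLC1 was chosen, and rank 1 depends on the limit of 100 CPM. In bulk RNA, more RNA per cell and more cells that hold the RNA cannot be told apart.

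TCOF1, which holds the RNA polymerase I machinery at the ribosomal DNA and resembles NOLC1 in its repeated acidic and serine-rich segments, rose as well. It was at 309, 321 and 340 CPM with siControl and at 520, 485 and 471 CPM with siZEB1, and the groups did not overlap. On the log2 scale the difference was 0.61, with an SE of 0.058 and an adjusted p of 3.39e-07 in edgeR's quasi-likelihood test over all 14996 genes. DKC1, the pseudouridine synthase dyskerin, rose by less. Its levels were 430, 436 and 438 CPM in the control cultures and 578, 559 and 551 CPM in the siZEB1 cultures, 0.37 higher on the log2 scale with an SE of 0.051 (edgeR, adjusted p = 1.68e-05). Again each siZEB1 culture lay above each control.

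NOP10 and NOP58 went the other way. NOP10, the small protein that sits against dyskerin in the box H/ACA particle, was at 73.6, 72.5 and 84.6 CPM with siControl and at 54.2, 56.0 and 49.8 CPM with siZEB1. The difference was -0.53 on the log2 scale with an SE of 0.077 (edgeR, adjusted p = 3.58e-05), and the groups did not overlap. NOP58, a scaffold of the box C/D particle, fell from 253, 247 and 235 CPM to 187, 191 and 192 CPM. That was -0.37 on the log2 scale with an SE of 0.056 (edgeR, adjusted p = 5.77e-05). The siZEB1 cultures were all below the lowest control.

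The remaining 5 genes did not pass the test, and their groups overlapped. FBL, the methyltransferase fibrillarin, was at 381, 360 and 422 CPM with siControl and at 443, 438 and 392 CPM with siZEB1. Its log2 fold change was 0.13, with a 95% interval from -0.0084 to 0.27 (adjusted p = 0.126 in edgeR's test). Replicate 3 was the highest control and the lowest siZEB1 culture, and FBL was called higher without siControl replicate 3 (log2 fold change 0.19, adjusted p = 0.0118 in edgeR's test) or without siZEB1 replicate 3 (0.19, adjusted p = 0.0318). NOP56, the other box C/D scaffold, was at 343, 355 and 375 CPM with siControl and at 377, 403 and 353 CPM with siZEB1, with an interval from -0.047 to 0.21 around 0.080. The histone and ribosome chaperones NPM1 and NCL were the most abundant of the 10. NPM1 was at 3092, 2911 and 2969 CPM and then at 3018, 3166 and 2992 CPM, and the interval of its log2 fold change ran from -0.065 to 0.13. NCL was at 2252, 2180 and 2231 CPM and then at 2347, 2247 and 2274 CPM, with an interval from -0.051 to 0.14. POLR1A was at 219, 221 and 207 CPM with siControl and at 207, 189 and 211 CPM with siZEB1, with an interval from -0.22 to 0.034. For these 4 genes the intervals leave room for changes of at most 0.22 on the log2 scale in either direction.

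**Figure D1:**
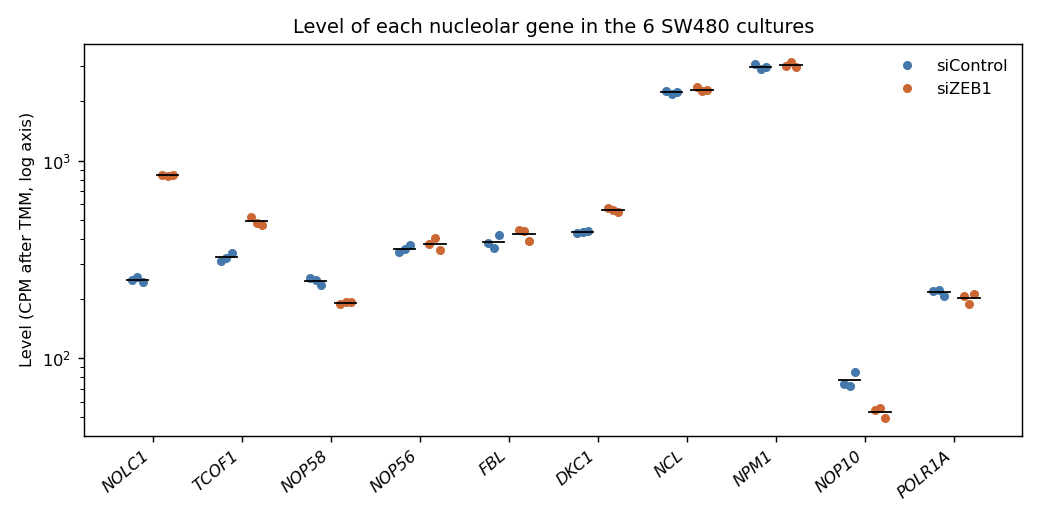
Level of each gene in CPM (log axis) in the 3 siControl and 3 siZEB1 cultures, 1 point per culture, with a line at each group's mean. NOLC1 moves from about the level of NOP58 to above that of DKC1, while NCL and NPM1 stay near their control levels.

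Without NOLC1, 2 of the 9 genes were called higher (22.2%) and 2 lower (22.2%), with a median of 0.044 on the log2 scale. Over all genes tested, 19.0% passed the adjusted threshold of 0.05 upward and 21.2% downward, and the median was -0.0055. The 9 genes were therefore called about as often as any tested gene. Their groups did not overlap at 4 of 9, or 44.4%, against 49.5% of all genes. Summed over the 9, the level was 7253 ± 132 CPM in control cultures and 7650 ± 143 CPM after siZEB1 (SD, n = 3 each). Most of this sum is NPM1 and NCL, at 2991 and 2221 CPM in the controls, and neither was called. The sum therefore does not show that the 9 genes rose together. NOLC1 made up 3.32 ± 0.149% of the summed CPM of all 10 genes with siControl and 9.93 ± 0.171% with siZEB1.

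**Figure D2:**
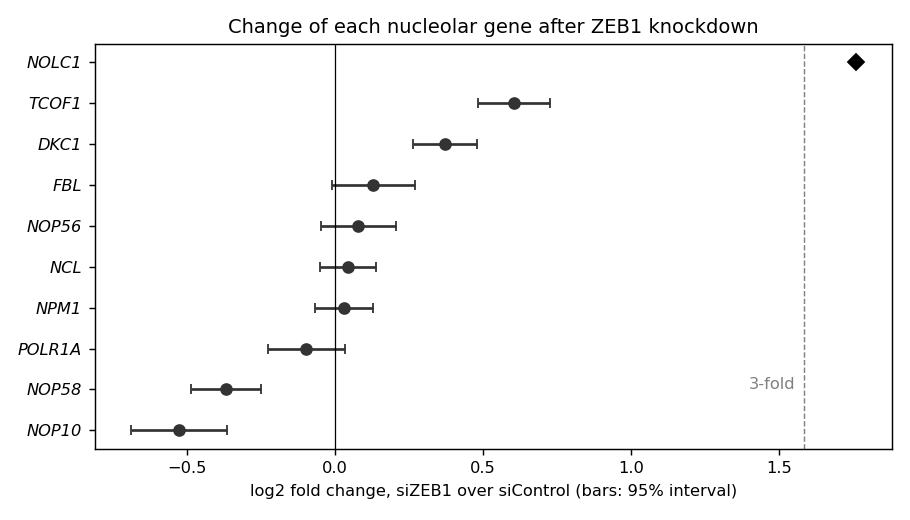
log2 fold change of siZEB1 over siControl for each gene, with a 95% interval for the 9 genes other than NOLC1 (diamond), a solid line at 0 and a dashed line at 3-fold. NOLC1, at 1.76, stands alone beyond the dashed line, and the intervals of FBL, NOP56, NCL, NPM1 and POLR1A include 0.

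Levels were compared between genes per kilobase of annotated exon, since longer transcripts give more reads. In the control cultures the order of mean levels ran NPM1 (781 CPM per kb), NCL (321), FBL (178), NOP10 (139), DKC1 (103), NOP58 (74.3), NOP56 (66.2), NOLC1 (62.6), TCOF1 (28.3) and POLR1A (16.0). Of these neighbors, only NOP56 and NOLC1 overlapped between cultures. In the siZEB1 cultures NOLC1, at 212 ± 1.19 CPM per kb, stood in rank 3, between NCL (330 ± 7.48) and FBL (195 ± 12.8), and overlapped neither. DKC1 (134), NOP10 (96.3), NOP56 (70.0), NOP58 (57.6), TCOF1 (43.0) and POLR1A (15.0) followed in that order, with no overlap between neighbors. Besides NOLC1, the pairs DKC1 and NOP10 and NOP56 and NOP58 changed places on this scale. The length used joins every annotated exon of a gene, whichever transcripts SW480 makes, so the order between genes depends on it. NOP56 (5398 bases) stood below NOP58 (3299 bases) per kb in the controls, but above it in CPM, at 358 against 245. In CPM without length, neither pair changed places.

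Proteins of the same particle are used together, so their transcript ratios were followed in each culture. In the box H/ACA particle the level of DKC1 over that of NOP10 (each per kb) was 0.770, 0.792 and 0.683 with siControl and 1.41, 1.32 and 1.46 with siZEB1. In the box C/D particle the level of NOP56 over that of NOP58 was 0.828, 0.876 and 0.974 with siControl and 1.23, 1.29 and 1.13 with siZEB1. The level of FBL over that of NOP58 was 2.29, 2.21 and 2.72 with siControl and 3.59, 3.48 and 3.11 with siZEB1. In each of these 3 ratios all siZEB1 cultures were above all controls. Such separation in either direction is common here, since the groups did not overlap at 49.5% of all genes tested. The ratios restate the levels above, since NOP10 and NOP58 fell, and the last pair of ratios shares NOP58 as its denominator. For the phosphoprotein pair, NOLC1 over TCOF1 was 2.31, 2.30 and 2.04 with siControl and 4.70, 4.99 and 5.15 with siZEB1. The change in this ratio restates the rise by which NOLC1 was chosen. The ratios are given without a test. Their size depends on the exon lengths used, while their relative change between the groups does not.

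**Figure D3:**
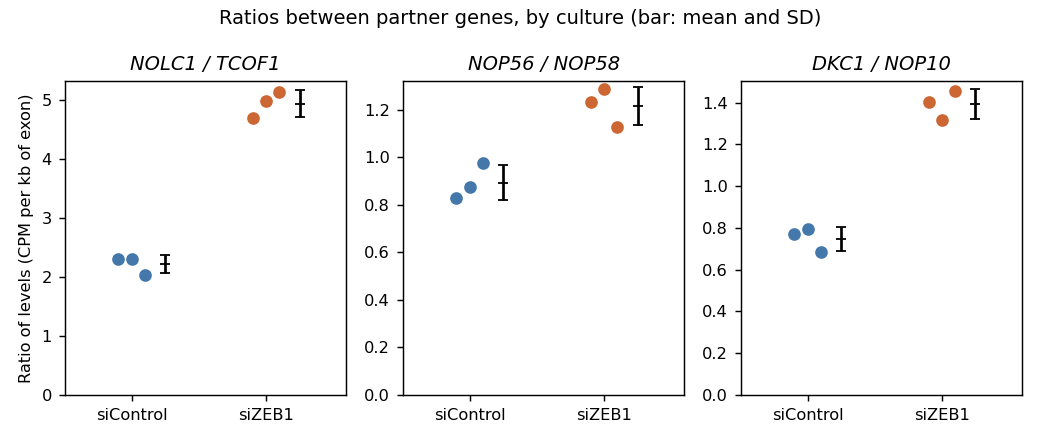
Ratio of the levels for NOLC1 over TCOF1, NOP56 over NOP58 and DKC1 over NOP10 (CPM per kb of exon over CPM per kb of exon) in each culture, with the mean and SD of the 3 cultures beside the points, on axes that start at 0. In each panel the siZEB1 cultures lie above the siControl cultures. For NOLC1 over TCOF1 this restates the rise by which NOLC1 was chosen.

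Besides their levels, the coding sequences of NOLC1 and TCOF1 share the known serine-rich character named above, so the shares below describe it and do not test it. In the longest coding sequence of each gene in GENCODE 29, serine codons made up 16.6% of NOLC1 and 13.6% of TCOF1, against a median of 7.62% over the 12332 tested genes with such a sequence. By this share NOLC1 ranked 56 and TCOF1 ranked 265. NOP56 followed at 10.3%, and the other 7 genes lay between 4.69% for NOP10 and 8.84% for NPM1. The share of lysine codons was above the median of 5.63% in all 10 genes, from 5.92% in FBL to 15.7% in NOLC1, with 13.6% in NOP58 and 12.7% in NCL. NCL and NPM1 were instead rich in acidic residues, with 24.8% and 22.1% codons for aspartate or glutamate against a median of 11.8%. FBL had 20.2% glycine codons, against a median of 6.44%, and is known for a domain rich in glycine and arginine at its N-terminus. Both NOLC1 and TCOF1 are known substrates of casein kinase 2, which phosphorylates serines beside acidic residues. The 30 codons in a row richest in serine, aspartate and glutamate in each of the pair are shown, with serine codons in capitals. They were picked for that richness, with no such search of other genes. In NOLC1 (codons 369 to 398 of ENST00000405356.5) they hold 11 serine and 8 acidic codons, and in TCOF1 (codons 1132 to 1161 of ENST00000642994.1) 9 serine and 11 acidic codons.
NOLC1: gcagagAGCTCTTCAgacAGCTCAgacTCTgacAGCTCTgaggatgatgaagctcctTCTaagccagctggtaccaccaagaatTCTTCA
TCOF1: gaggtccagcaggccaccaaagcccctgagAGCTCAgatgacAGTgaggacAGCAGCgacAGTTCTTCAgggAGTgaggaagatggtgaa

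**Figure D4:**
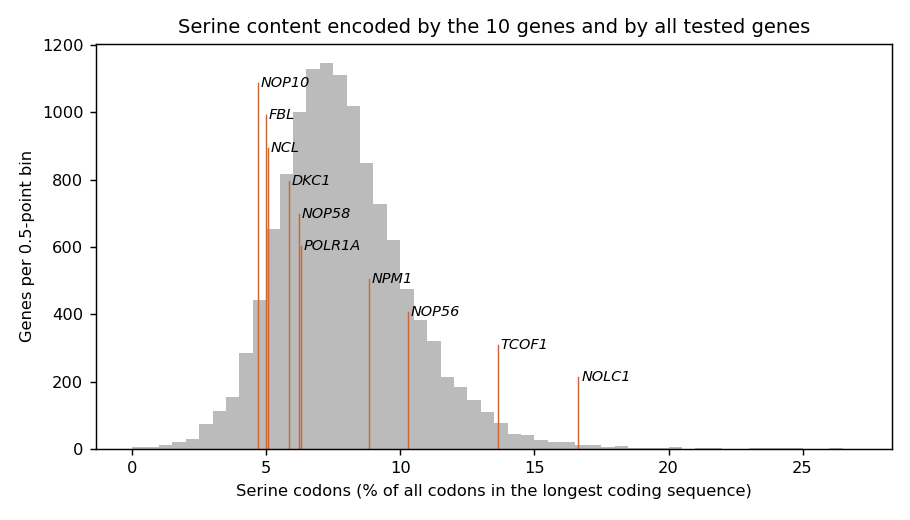
Number of tested genes by the share of serine codons in their longest coding sequence, in bins of 0.5 percentage points, with a line for each of the 10 nucleolar genes (line heights carry no value). NOLC1 and TCOF1 lie in the upper tail, at 16.6% and 13.6%.

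Genes of ribosome biogenesis are known targets of MYC, which binds the E-box CACGTG. MYC was at 508, 521 and 526 CPM with siControl and at 343, 333 and 321 CPM with siZEB1. The groups did not overlap, and the difference was -0.64 on the log2 scale with an SE of 0.053 (edgeR, adjusted p = 5.47e-08). RefSeq promoter windows (GRCh38.p14, 250 bases before to 50 after a start) were at hand for 7 of the 10 genes, in 8 windows, and those of NOLC1, TCOF1 and NOP58 were not used here. CACGTG, which reads the same on both strands, was in 2 of the 8 windows and in 7.26% of all 35116 windows. NOP10, which fell, held it at 2 places and FBL, which was not called, at 1. The 30 bases around each are shown in the direction of transcription, with the E-box in capitals.
NOP10, chr15:34343289-34343318, minus strand, E-box from -170: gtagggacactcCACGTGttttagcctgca
NOP10, chr15:34343130-34343159, minus strand, E-box from -11: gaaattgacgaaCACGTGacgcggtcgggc
FBL, chr19:39846356-39846385, minus strand, E-box from 7: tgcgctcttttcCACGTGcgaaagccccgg

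The E-box that ZEB1 is known to bind, CAGGTG or CACCTG (each the other's reverse complement), was in 0 of the 8 windows and in 20.6% of all windows. Those 8 windows do not cover NOLC1, TCOF1 or NOP58, and they are too few to tell whether the motif is rarer in them. These matches describe letters in a window and say nothing about binding, and any part of MYC in the levels was not tested.

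The rest of the ribosome biogenesis pathway was followed in lists compiled by hand from known functions. Outside the 10 genes, 113 pathway genes were tested, and 16 were called higher (14.2%) and 23 lower (20.4%) in edgeR's test. The median over the 113 was 0.0015 on the log2 scale, and groups were without overlap at 41.6%. The count of higher genes was 8 without siZEB1 replicate 1 and 10 without siZEB1 replicate 2. Over all genes the count called higher also fell in these fits, from 2849 to 2323 and 2396. Of all genes, 19.0% were called higher and 21.2% lower, so these shares are not read as a trait of the pathway. None of the 113 rose as much as TCOF1, since the highest log2 fold change among them was 0.54.

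In the box H/ACA core, NHP2, which binds the snoRNA beside NOP10, fell with it, from 83.2 ± 6.77 to 60.2 ± 5.04 CPM (log2 fold change -0.47, adjusted p = 0.000156 in edgeR's test). DKC1 was the only one of the 4 core genes called higher (25%), and 2 were lower (50%), against 19.0% and 21.2% of all genes. GAR1 was not called, at 152 ± 17.2 CPM in control and 157 ± 9.05 CPM in siZEB1 cultures. In the box C/D core NOP58 was the only one of 4 genes called, so 25% were lower, against 21.2% of all genes. SNU13, which binds the snoRNA first, was at 204 ± 14.8 and 221 ± 14.6 CPM. Of 10 snoRNP assembly factors 2 were higher (20%) and 1 lower (10%), against 19.0% and 21.2% of all genes. ZNHIT3 and ZNHIT6 rose by 0.26 and 0.21 on the log2 scale, and RUVBL2, a helicase of the R2TP complex, fell by 0.23. These 3 calls were lost when some cultures were left out, with changes in the same direction. Without siZEB1 replicate 1 the log2 fold change was 0.18 for ZNHIT3 (adjusted p = 0.177 in edgeR's test) and 0.20 for ZNHIT6 (0.0763). The ZNHIT3 call was also lost without siControl replicate 1 (0.21, adjusted p = 0.0993 in edgeR's test) and without siZEB1 replicate 2 (0.26, adjusted p = 0.0603). RUVBL2 was at -0.16 without siZEB1 replicate 3 (adjusted p = 0.057 in edgeR's test).

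Among 13 RNA polymerase I subunits 2 were higher (15.4%) and 1 lower (7.69%), against 19.0% and 21.2% of all genes. POLR1E fell from 127 ± 6.19 to 88.6 ± 1.73 CPM (log2 fold change -0.52, adjusted p = 5.01e-06 in edgeR's test), and POLR1B, the second large subunit, rose from 153 ± 8.69 to 183 ± 2.64 CPM (0.26, adjusted p = 0.00275). ZNRD1, at 4.73 ± 0.442 and 6.16 ± 0.247 CPM, had a log2 fold change of 0.38 and was called with an adjusted p-value of 0.0338 in edgeR's test. The call was lost in 8 of its alternatives, with adjusted p-values of up to 0.124 when siControl replicate 1 was left out, while its log2 fold change stayed between 0.31 and 0.43. Of the 8 general factors of RNA polymerase I, edgeR's test and DESeq2 each called 0, and in edgeR's test 3 had an unadjusted p-value under 0.05. Of all genes, 19.0% (higher) and 21.2% (lower) passed even the stricter adjusted threshold.

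Of 37 small-subunit processome genes, which cut the 5′ part of the precursor, 5 were higher (13.5%) and 10 lower (27.0%), against 19.0% and 21.2% of all genes, with a median log2 fold change of -0.038. NOC4L and TBL3 fell by 0.63 and 0.62 on the log2 scale, and EMG1, a ribosomal RNA methyltransferase, fell by 0.55. MPHOSPH10 rose from 64.5 ± 5.05 to 93.6 ± 1.48 CPM (log2 fold change 0.54, adjusted p = 1.03e-05 in edgeR's test). Of 37 large-subunit assembly factors 6 were higher (16.2%) and 9 lower (24.3%), close to the shares of all genes, with a median of -0.0099. EBNA1BP2 fell from 174 ± 10.6 to 78.7 ± 6.34 CPM, which is -1.15 on the log2 scale with an SE of 0.072 (edgeR, adjusted p = 2.44e-09). FTSJ3, another ribosomal RNA methyltransferase, fell by 0.93 and MAK16 by 0.80 on the log2 scale. BOP1, which forms a complex with PES1 and WDR12, fell by 0.55. Among the 9 nucleolar chaperones and phosphoproteins other than NOLC1, 2 were higher (22.2%) and 1 lower (11.1%), near the shares of all genes. The higher ones were TCOF1 and UTP25 (UTP25 at 0.38), and the lower one was NOP9, at -0.68. UTP25 and NOP9 are known as factors of small-subunit maturation rather than as chaperones.

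**Figure D5:**
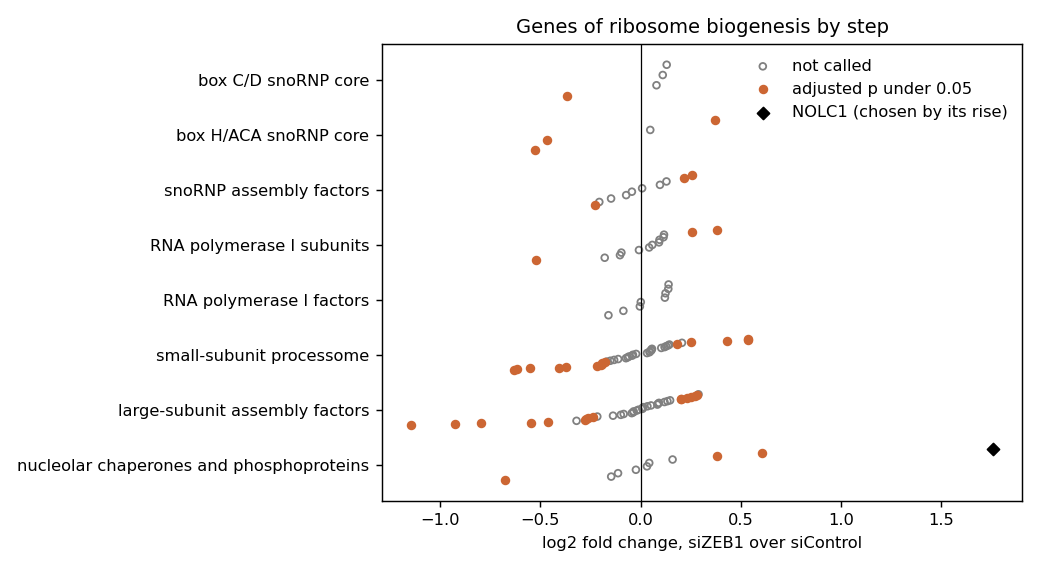
log2 fold change of siZEB1 over siControl for each gene of 8 ribosome biogenesis lists, with filled points for genes called at an adjusted p-value under 0.05, open points for the others and a diamond for NOLC1, whose call is not shown because it was chosen by its rise. Called genes lie on both sides of 0 in most lists, with EBNA1BP2 lowest at -1.15.

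The genes whose pattern over the 6 cultures lay closest to that of NOLC1, by Euclidean distance between log2(CPM + 1) values set to 0 at the control mean, were TPM4 (distance 0.098), SYK (0.17), LOXL3 (0.17), MC5R (0.25) and RGL3 (0.26). The difference between the 2 groups makes up most of this likeness. TPM4, a tropomyosin, was at 196, 196 and 194 CPM with siControl and at 647, 646 and 633 CPM with siZEB1. SYK, a cytoplasmic tyrosine kinase, was at 62.7, 61.7 and 59.7 CPM and then at 227, 222 and 223 CPM. MC5R and RGL3 were near 1 CPM in the controls, where the added 1 shrinks a difference, and their fitted log2 fold changes of 2.45 and 2.32 were above that of NOLC1. None of the 5 was on the ribosome biogenesis lists.

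NOLC1 lies on chromosome 10 (GRCh38, 102152176 to 102163871, plus strand) and TCOF1 on chromosome 5 (150357629 to 150400308, plus strand). Of 7 tested protein-coding genes within 250 kb of NOLC1, 2 were called higher and 2 lower (19.0% and 21.2% of all genes were), and their log2 fold changes ran from -0.38 to 0.29, against 1.76 for NOLC1. PPRC1, the nearest of these, had mean levels of 193 ± 11.5 CPM in control and 185 ± 5.18 CPM in siZEB1 cultures (log2 fold change -0.062, adjusted p = 0.446 in edgeR's test). Of 6 such genes around TCOF1, 1 was called higher and 2 lower. This comparison was chosen after the values were seen.

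How reads with several matches and the strand were treated is not given in the sources used here. No exon of any of them overlaps an annotated exon on the opposite strand, so no annotated antisense exon could add reads to them. Exons of NOP56, DKC1 and NOP58 overlap annotated small RNA genes on the same strand over 8.74%, 5.85% and 1.88% of their exonic bases. NPM1 has 14 listed rows named as its pseudogenes, which together held between 2.31% and 2.60% of the NPM1 count per culture. NOP56 has 2 such rows and NCL 1, with at most 0.0444% and 0.0162% of the count of their gene.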

How the data were processed

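Total RNA was sequenced from 6 SW480 cultures. For each of them the authors deposited raw counts of reads per Ensembl gene, without normalization. The submitters' processing notes name Trimmomatic, HISAT2, SAMtools, featureCounts and hg38. Versions, annotation, strand setting and the treatment of reads with several matches are not given in the sources used here. Gene models and coding sequences were those of GENCODE 29 (GRCh38), in which 31059 of the 32029 listed genes were found.

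Genes were kept by filterByExpr with the condition as the group, which left 14996, scaled by TMM and fitted with edgeR (glmQLFit and glmQLFTest), with no covariate. Tests were two-sided, and p-values were adjusted by Benjamini-Hochberg over all 14996 genes. The biological coefficient of variation was 6.58%. SE is the absolute log2 fold change over the square root of the test's F, and 95% intervals follow from it. For pairs of replicates, chi-square over degrees of freedom ran from 2.27 to 9.58, where 1 is sampling noise alone. The paper calls the 3 samples of a group biological replicates.

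The genes and lists were chosen with earlier results of these data known. Named genes were ZEB1, MYC, the 10 genes, up to 4 called genes per list with the largest change and no overlap between groups, and the 5 nearest to NOLC1 with a mean of at least 1 CPM. GAR1, SNU13, the markers and PPRC1 were named after their values were seen. Alternatives were a block on the replicate number, leaving out each culture, DESeq2, scaling by DESeq2's size factors or by library totals alone, no filter, a minimum of 10 counts per culture, and sums with pseudogene rows. The fit was tested on simulated data. Software was R 4.3.3, edgeR 4.0.16, limma 3.58.1, DESeq2 1.42.0, Python 3.11.15, numpy 2.4.6, pandas 2.3.3 and matplotlib 3.10.9.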

Additional observations from a re-analysis of the deposited data

How the results depend on the processing

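Over the alternatives run, the log2 fold change of NOLC1 stayed between 1.74 and 1.78, and each of the other 9 genes kept its direction and its side of the threshold except FBL, which was called higher without siControl replicate 3 or without siZEB1 replicate 3. With 1 culture left out, the log2 fold change of FBL ran from 0.079 to 0.19. The count of pathway genes called higher outside the 10 ran from 8 to 19 with 1 culture left out, and that of genes called lower from 19 to 24. Over all genes, the same fits called from 2305 to 2928 higher and from 2637 to 3311 lower. With the replicate number as a block, 7 pathway genes were called higher in place of 16 and 18 lower in place of 23. The cause was not tested. The deviations of same-numbered cultures from their group means correlated at -0.107, -0.147 and -0.339 across genes, so same-numbered cultures did not deviate together. The labels do not say whether the numbers pair cultures, and with 3 cultures per group these correlations cannot settle it. The block moved the count of all genes called higher from 2849 to 2289 and lower from 3186 to 2679.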

Other observations

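Introns of NOP58, NOP56, DKC1 and NCL encode snoRNAs, and 5 of these were listed with reads. SNORD11, inside NOP58, had 34, 37 and 26 reads with siControl and 33, 29 and 43 reads with siZEB1. Its log2 fold change was 0.25, with a 95% interval from -0.26 to 0.77 (adjusted p = 0.438 in edgeR's test), while NOP58 fell by 0.37 on the log2 scale. SNORD20 and SNORA75, inside NCL, had at most 8 and at most 5 reads per culture, and SNORD70 and SNORD11B, inside NOP58, at most 3 each. These 4 were below the filter on low counts and were not tested.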
